A study of Mus musculus with 8 samples.

Results

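The genes described here encode the machinery that copies chromosomal DNA, from the proteins that mark an origin to those that join the finished strands. The set holds 42 named genes, taken as a list of subunits by function, out of 55418 genes in the deposited count tables. The list was chosen with earlier results of these data known. All 42 were found in the tables, and all 42 passed the filter on low counts in each comparison. Messenger RNA was sequenced from mouse E14 embryonic stem cells (ESCs), an established pluripotent line, in 8 libraries of 4 conditions with 2 libraries each.

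The conditions were control, Hira depletion, Ubn1 depletion and Ubn2 depletion. Hira, Ubn1 and Ubn2 encode subunits of the HIRA complex, a chaperone that places the histone variant H3.3 on DNA outside of replication. Each depletion used a short hairpin RNA (shRNA) from a transiently introduced pSuper puro plasmid, 1000 ng per transfection per the labels. Puromycin, per the labels at 1 ug/ml from 24 h for 3 days, served to remove cells without the plasmid. The methods of the study give a slightly lower dose and a start that may be earlier. All cells grew in serum with leukemia inhibitory factor on gelatin, and the strain is entered as 12910la for every library. The control libraries are labelled wild type, whereas the methods of the study name a hairpin against luciferase as control, and which of these the control cells received is not settled by these sources. The hairpins lower a transcript in part and leave the gene intact, and the RNA comes from the selected population as a whole. Nothing states that the libraries of a condition came from separate cultures, so p-values measure the spread between these libraries.

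Replication begins when the origin recognition complex (ORC) binds DNA and, with Cdc6 and Cdt1, loads the ring-shaped MCM helicase. In S phase Mcm10, Cdc45 and the GINS complex turn the loaded ring into an active helicase. DNA polymerase α with primase starts each strand, polymerases δ and ε extend it, and the clamp Pcna, loaded by replication factor C, holds them on the template. Fen1, Dna2 and Lig1 join the pieces of the lagging strand, while replication protein A covers single strands. Many of these genes are switched on by E2F factors as cells enter S phase, and ESCs, with short gap phases, carry high levels of their transcripts.

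Library totals ranged from 19710040 to 32706053 counts, and the targeted transcripts followed the labels. Hira stood at 89.5 and 97.7 CPM (counts scaled to a common library size with TMM factors) in the control libraries and at 10.0 and 10.4 after Hira depletion, a fall of 89.2%. Ubn1 stood at 53.1 and 44.1 CPM in control and 23.8 and 23.8 after Ubn1 depletion, a fall of 51.0%. Ubn2 stood at 50.1 and 51.7 CPM in control and 30.1 and 24.6 after Ubn2 depletion, a fall of 46.2%. The fall of the target was thus largest for Hira and of like size for Ubn1 and Ubn2, so that a difference between Hira depletion and the others cannot be told apart from the deeper loss of the target. Of the 10 ESC markers listed, Pou5f1, Sox2 and Nanog were at 351.8 CPM or more in each library. Others moved, and not after Ubn2 depletion only. Tdgf1 stood at 1517 and 1575 CPM in control and 891 and 911 in Ubn2-depleted ESCs. It was at 1354 and 1224 CPM in Hira-depleted and 1163 and 1175 in Ubn1-depleted ESCs. Dppa5a went from 1303 and 1292 CPM in control to 914 and 922 in Hira-depleted and 878 and 913 in Ubn1-depleted ESCs. After Ubn2 depletion Dppa5a was at 819 and 906 CPM. Klf4 was at 130 and 145 CPM there, beside 189 and 220 in control, while Esrrb was higher, at 954 and 933, beside 752 and 809. After Hira depletion Tfcp2l1 was at 245 and 265 CPM, beside 350 and 386 in control. Pou5f1 was lower there, at 942 and 1036, beside 1170 and 1256, and Nanog higher, at 598 and 526, beside 473 and 424. How many of the 10 rose or fell is given with the other markers.

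Promoters are shown for the members called lower after Hira depletion with the smallest adjusted p (Pold1, Cdc6, Mcm6 and Pold2), and for Gins3, which was chosen after its values were seen because it moved the other way after Ubn2 depletion. Each run holds 250 bases before and 50 bases after the RefSeq start, on GRCm38.p6, read 5′ to 3′ on the strand of the gene. Capitals mark an exact match, on either strand, to 1 of 4 octamers of the E2F type: TTTCCCGC, TTTCGCGC, TTTGCCGC and TTTGGCGC. The Pold1 window lies at chr7:44548766-44549065 on the minus strand, across the 5′ end of the gene. The Cdc6 window lies at chr11:98907901-98908200 on the plus strand, within the gene as GENCODE draws it, since that model starts further upstream. The Mcm6 window, chr1:128359656-128359955 on the minus strand, just reaches into the gene's 5′ end and holds 3 matches, of which a pair shares bases. The Pold2 window, chr11:5878207-5878506 on the minus strand, is the outer of 2 windows listed for the gene and holds no match. The Gins3 window lies at chr8:95633309-95633608 on the plus strand, across the start of the gene, and holds 1 match.
Pold1: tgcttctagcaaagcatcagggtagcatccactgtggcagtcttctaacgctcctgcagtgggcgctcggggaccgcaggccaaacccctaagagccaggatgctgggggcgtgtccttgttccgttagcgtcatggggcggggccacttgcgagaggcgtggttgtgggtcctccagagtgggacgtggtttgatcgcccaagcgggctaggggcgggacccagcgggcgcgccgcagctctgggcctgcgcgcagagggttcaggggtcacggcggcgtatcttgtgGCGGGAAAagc
Cdc6: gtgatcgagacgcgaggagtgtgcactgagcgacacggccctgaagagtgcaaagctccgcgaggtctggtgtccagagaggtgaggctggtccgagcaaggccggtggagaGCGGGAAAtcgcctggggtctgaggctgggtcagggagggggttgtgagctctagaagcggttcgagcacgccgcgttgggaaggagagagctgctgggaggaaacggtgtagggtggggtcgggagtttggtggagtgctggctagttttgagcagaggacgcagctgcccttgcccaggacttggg
Mcm6: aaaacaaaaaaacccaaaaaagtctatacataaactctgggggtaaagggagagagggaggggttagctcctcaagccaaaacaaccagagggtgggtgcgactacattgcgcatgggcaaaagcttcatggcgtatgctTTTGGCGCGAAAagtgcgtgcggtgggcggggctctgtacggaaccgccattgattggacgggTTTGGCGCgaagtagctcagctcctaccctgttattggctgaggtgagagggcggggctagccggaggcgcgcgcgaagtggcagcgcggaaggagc
Pold2: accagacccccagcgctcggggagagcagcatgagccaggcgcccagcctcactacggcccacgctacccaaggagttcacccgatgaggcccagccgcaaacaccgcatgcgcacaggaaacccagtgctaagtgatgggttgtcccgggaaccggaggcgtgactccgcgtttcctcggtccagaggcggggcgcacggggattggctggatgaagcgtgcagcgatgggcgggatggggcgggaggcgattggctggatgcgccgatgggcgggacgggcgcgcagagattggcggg
Gins3: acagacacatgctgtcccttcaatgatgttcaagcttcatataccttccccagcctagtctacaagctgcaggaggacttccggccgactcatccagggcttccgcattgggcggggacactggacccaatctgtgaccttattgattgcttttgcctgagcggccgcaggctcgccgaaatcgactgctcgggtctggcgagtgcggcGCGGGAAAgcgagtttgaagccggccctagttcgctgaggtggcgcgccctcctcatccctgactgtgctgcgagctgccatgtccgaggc

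Of the 42 members, 34 had a promoter in the RefSeq table. At least 1 octamer was found in 15 of these 34 (44.1%), beside 2.60% of the 27025 gene symbols with such a window, chromosome 18 left out. The CCAAT box, a common promoter element, was found in 61.8% of the members' windows and in 41.1% of all. The 15 with an octamer were Orc1, Orc3, Cdc6, Cdt1, Mcm3, Mcm5, Mcm6, Mcm7, Gins3, Pola1, Pold1, Pold3, Pole2, Rfc3 and Lig1. After Hira depletion 14 of these 15 fell, with a median log2 fold change of -0.53, and of the 19 without an octamer 13 fell, with a median of -0.40. After Ubn2 depletion 8 of the 15 fell (median -0.28) and 8 of the 19 (median -0.14). A match describes letters in the window only, and no binding was measured.

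In control ESCs the members ranged over more than an order of magnitude. On the TPM scale, which corrects counts for exon length before scaling every library to the same sum, Mcm5, a helicase subunit, stood highest at 547 and 561 TPM in the control libraries. Pcna, the sliding clamp, followed at 475 and 476 TPM, and the helicase subunits Mcm3, Mcm7, Mcm4, Mcm6 and Mcm2 came among the next places, with means from 361 down to 198 TPM. Orc4, a subunit of the origin recognition complex, was lowest at 10.4 and 10.4 TPM, below Gins3 at 22.4 and 22.2 TPM. Even Orc4 lay above 67.9% of the genes with a control level over 0. Within the helicase activators, Gins4 at 131 and 126 TPM stood well above Gins3, although both proteins belong to the same complex. The polymerase α subunits Pola1 and Pola2 and the primase subunit Prim2 were near the low end, with means of 32.2, 29.1 and 25.7 TPM. Between neighbours in this order, the control libraries overlapped for 17 of 41 pairs. With the longest transcript in place of all exons joined, 37 of the 42 levels moved by more than their SD, and Pcna rather than Mcm5 came out highest, while Orc4 stayed lowest.

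**Figure D1:**
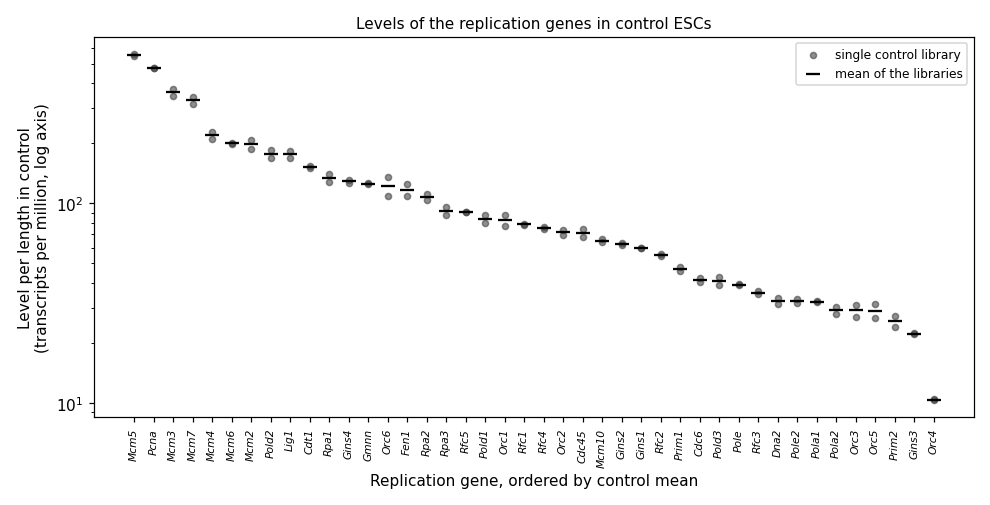
Level per length of the 42 replication genes in the control libraries, in TPM on a log axis, with genes on the x axis ordered by their mean (dots are single libraries, bars their mean). Mcm5 and Pcna lead, and Orc4 stands below the others at 10.4 TPM.

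The counts were then compared between conditions, to ask how far the replication genes respond to the loss of each subunit. A member is said to have risen or fallen when its adjusted p was under 0.05, and it is called when its fold also exceeded 1.5, the rule of the study. After Hira depletion 35 of the 42 members fell and 0 rose, against 17.3% of the 19035 genes tested that fell. Of the 35, 12 were called lower, where 5.4% of all genes were. The median log2 fold change of the members was -0.51, a level 29.7% lower, beside a median of 0.01 over all genes tested. Because these are abundant transcripts, the 7118 genes at or above the lowest member in control (25.8 CPM) were also counted: 32.7% of them fell, and their median was -0.09. Both Hira-depleted libraries lay below both control libraries for 36 members, beside 31.4% of all genes. At an unadjusted p under 0.05, 36 members were lower and 0 higher, and DESeq2 gave 35 lower and 0 higher.

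The summed level shows the same in single libraries. The 42 members together made up 0.784% and 0.791% of all counts in the control libraries and 0.605% and 0.626% after Hira depletion. Their share was 0.788% and 0.810% in Ubn1-depleted and 0.733% and 0.732% in Ubn2-depleted ESCs. The Hira-depleted libraries were thus the lowest pair, the Ubn2-depleted pair lay between them and control, and the Ubn1-depleted pair overlapped control. In a population of cells, fewer cells in S phase and less transcript per cell cannot be told apart.

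**Figure D2:**
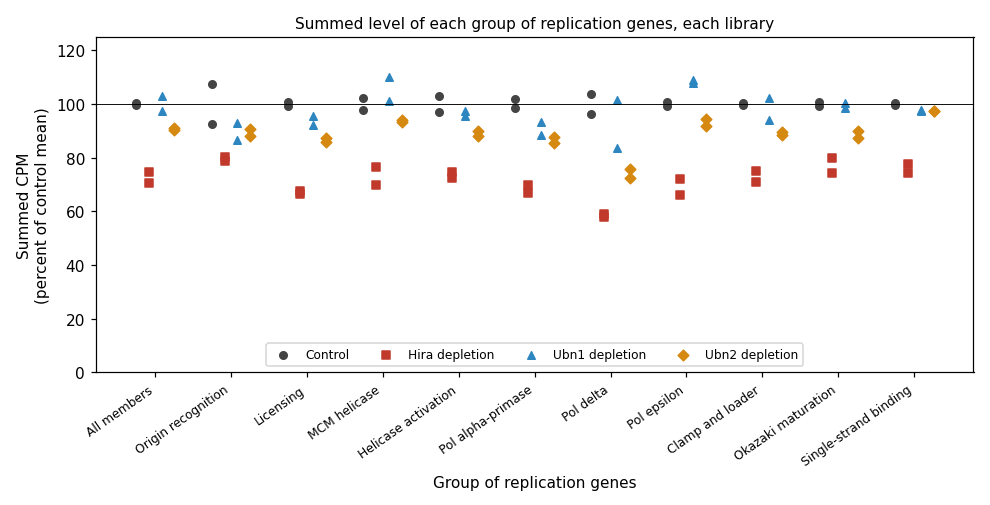
Summed CPM of all members and of each functional group, as percent of the control mean on the y axis, with groups on the x axis and 1 point per library. The Hira-depleted libraries lie below the other libraries in every group, lowest for polymerase δ, and the Ubn1-depleted libraries lie from 83.4% (polymerase δ) to 109.9% (MCM helicase).

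After Ubn2 depletion 20 of the 42 members fell and 2 rose. Among the 18219 genes tested 19.1% fell and 20.0% rose. Gmnn and Pold2 were called lower, where 8.75% of all genes were, and no member was called higher. The median log2 fold change of the members was -0.16, beside -0.004 over all genes, and 25.8% of the abundant genes fell. Both Ubn2-depleted libraries lay below both control libraries for 29 members, beside 34.9% of all genes.

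After Ubn1 depletion 0 members fell and 0 rose in edgeR, and DESeq2 gave 0 in either direction. Among the 18373 genes tested 3.62% fell and 4.14% rose. At an unadjusted p under 0.05, 9 members were lower and 0 higher. Log2 fold changes ran from -0.30 to 0.17 with a median of -0.05, and both libraries lay below both controls for 15 members, beside 24.8% of all genes. Gmnn came nearest to the threshold (log2 fold change -0.30, SE 0.10, adjusted p = 0.0502), followed by Prim1 (adjusted p = 0.098), Rfc4 (adjusted p = 0.101) and Gins1 (adjusted p = 0.113). The call for Gmnn depends on the settings, and 5 members passed as lower without the first Ubn1-depleted library. The 3 comparisons with control share the same control libraries, so their values are given side by side and not as independent results.

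**Figure D3:**
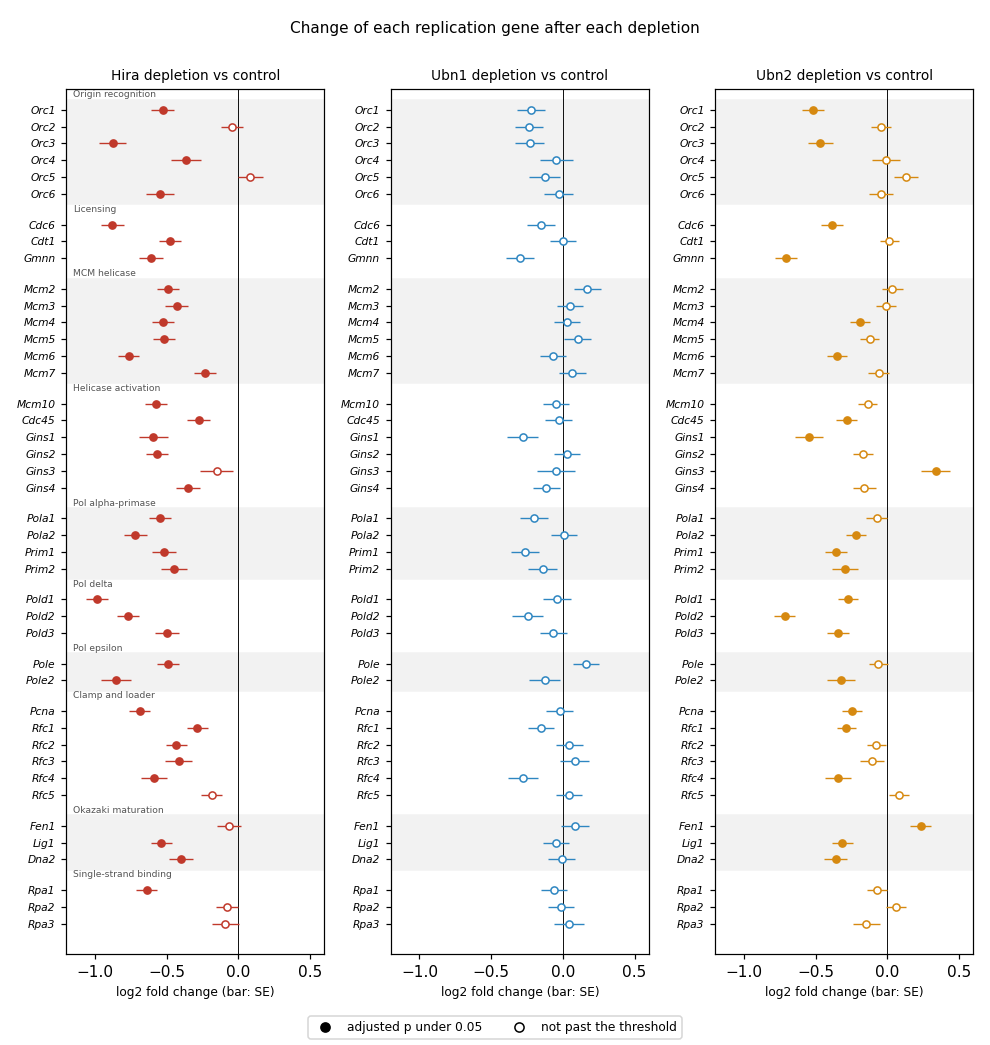
Log2 fold change of each member against control (x axis, bars are the SE) after depletion of Hira, Ubn1 and Ubn2, with genes on the y axis in functional groups and points filled where the adjusted p was under 0.05. Filled points number 35 after Hira, 0 after Ubn1 and 22 after Ubn2 depletion, and Gins3 and Fen1 are the filled points to the right of 0.

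The origin recognition complex did not move as a block. After Hira depletion 4 of its 6 genes fell (Orc1, Orc3, Orc4 and Orc6), and after Ubn2 depletion 2 did (Orc1 and Orc3). Orc3 changed most, from 81.7 and 69.8 CPM in control to 42.3 and 40.9 in Hira-depleted, 67.2 and 61.9 in Ubn1-depleted and 56.5 and 52.9 in Ubn2-depleted ESCs. Its Hira-depleted libraries were the lowest and its control libraries the highest, with no overlap (log2 fold change -0.88, SE 0.09, adjusted p = 4.06e-07 after Hira depletion, log2 fold change -0.47, SE 0.09, adjusted p = 2.10e-04 after Ubn2 depletion). Orc1, an ATP-binding subunit that is made anew in each cycle, stood at 132 and 114 CPM in control. It was at 85.6 and 86.4 CPM in Hira-depleted and 88.8 and 82.2 in Ubn2-depleted ESCs. These pairs were almost level with each other and below control (log2 fold change -0.53, SE 0.08, adjusted p = 4.09e-05, and log2 fold change -0.52, SE 0.08, adjusted p = 1.78e-05). Orc6 stood at 144 and 114 CPM in control, 94.2 and 84.1 in Hira-depleted and 123 and 127 in Ubn2-depleted ESCs, so that it fell after Hira depletion (log2 fold change -0.55, SE 0.09, adjusted p = 1.41e-04), while the Ubn2-depleted libraries lay within the control range. Orc4 (log2 fold change -0.36, SE 0.11, adjusted p = 0.0103) did not pass with library totals alone or without the first Hira-depleted library. Orc2 and Orc5 did not pass in any comparison with control, at -0.04, SE 0.08 and 0.08, SE 0.09 on the log2 scale after Hira depletion. Orc2 shares 29.8% of its exon bases with Nif3l1 on the other strand.

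All 3 licensing genes fell after Hira depletion. Cdc6, the loader of the helicase whose promoter is shown above, stood at 95.7 and 89.1 CPM in control, 49.5 and 52.1 in Hira-depleted, 86.8 and 79.8 in Ubn1-depleted and 72.7 and 68.4 in Ubn2-depleted ESCs. The order of the 4 conditions did not overlap, and the fall passed after Hira depletion (log2 fold change -0.88, SE 0.08, adjusted p = 1.03e-07) and after Ubn2 depletion (log2 fold change -0.39, SE 0.08, adjusted p = 3.34e-04). Cdt1, its partner in loading, went from 203 and 205 CPM to 154 and 143 after Hira depletion (log2 fold change -0.48, SE 0.08, adjusted p = 5.18e-05). The Ubn2-depleted libraries, at 202 and 211 CPM, overlapped control for Cdt1. Gmnn encodes geminin, the inhibitor of Cdt1, and stood at 79.2 and 78.3 CPM in control, 50 and 54.4 in Hira-depleted, 65.5 and 62.6 in Ubn1-depleted and 47.9 and 48.7 in Ubn2-depleted ESCs. It was called lower after Hira depletion (log2 fold change -0.61, SE 0.08, adjusted p = 8.83e-06) and after Ubn2 depletion (log2 fold change -0.71, SE 0.08, adjusted p = 4.76e-07). The loader and its inhibitor thus both had fewer transcripts after Hira depletion, whereas after Ubn2 depletion Gmnn fell while Cdt1 was at 0.01, SE 0.07 on the log2 scale.

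The 6 helicase genes Mcm2 to Mcm7 fell together after Hira depletion. Their summed level was 3392 and 3545 CPM in control and 2418 and 2650 CPM after Hira depletion. Mcm6 changed most, from 406 and 391.5 CPM to 238 and 236 in Hira-depleted, 376 and 385 in Ubn1-depleted and 309.5 and 317 in Ubn2-depleted ESCs. Its 2 Hira-depleted libraries differed by little and lay far under the others (log2 fold change -0.76, SE 0.07, adjusted p = 1.39e-07), and the fall after Ubn2 depletion was smaller (log2 fold change -0.35, SE 0.07, adjusted p = 4.22e-04). Mcm5, the most abundant of the 6, stood at 942 and 949 CPM in control and 633 and 701 after Hira depletion (log2 fold change -0.52, SE 0.08, adjusted p = 2.04e-05). For Mcm2 the control libraries were at 561 and 616 CPM and the Hira-depleted ones at 403 and 445 (log2 fold change -0.49, SE 0.08, adjusted p = 5.66e-05). The same held for Mcm3 and Mcm4, at -0.43 and -0.52 on the log2 scale. Mcm7 fell least (log2 fold change -0.23, SE 0.08, adjusted p = 0.0214) and did not pass with all 8 libraries in 1 fit, with libraries scaled by their totals, or without the second control or the first Hira-depleted library. After Ubn2 depletion Mcm4 (log2 fold change -0.19, SE 0.07, adjusted p = 0.0353) and Mcm6 fell, and the other 4 did not pass, from -0.12 for Mcm5 to 0.03 for Mcm2. The call for Mcm4 was lost with all 8 libraries in 1 fit (adjusted p = 0.0799), with library totals alone (adjusted p = 0.0944), and without the second control or the second Ubn2-depleted library (adjusted p = 0.248 and 0.126).

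Among the 6 genes that turn the helicase on, 5 fell after Hira depletion. Mcm10, which binds the loaded ring, stood at 219 and 208 CPM in control and 142 and 148 after Hira depletion (log2 fold change -0.57, SE 0.07, adjusted p = 5.75e-06). Gins1 went from 39.2 and 38.3 CPM in control to 26.3 and 25.5 in Hira-depleted and 26.4 and 26.7 in Ubn2-depleted ESCs. The 2 depletions gave nearly the same level for Gins1 and both lay below control (log2 fold change -0.59, SE 0.10, adjusted p = 1.15e-04, and log2 fold change -0.55, SE 0.10, adjusted p = 1.64e-04). Gins2 stood at 111 and 107 CPM in control and 73.5 and 75.9 after Hira depletion (-0.57, SE 0.08), and 67.3% of its exon bases lie opposite to exons of Gse1. Gins3, another subunit of the complex, stood at 26.2 and 25.5 CPM in control, 21.7 and 25.5 in Hira-depleted, 28.6 and 21.5 in Ubn1-depleted and 32.4 and 32.8 in Ubn2-depleted ESCs. It rose after Ubn2 depletion (log2 fold change 0.34, SE 0.10, adjusted p = 0.0124), with an adjusted p of 0.0545 without the second control library, and was at -0.15, SE 0.12 after Hira depletion. Cdc45, the helicase partner of GINS, fell in both depletions (log2 fold change -0.28, SE 0.08, adjusted p = 0.00994, and log2 fold change -0.28, SE 0.07, adjusted p = 0.00409), and passed in neither without the first control library. The Cdc45 gene, chr16:18780447-18811987, lies 65049 bases from Hira, the gene targeted here.

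The genes of polymerase α and primase all fell after Hira depletion, and 3 of the 4 fell after Ubn2 depletion. Pola2, the regulatory subunit, stood at 99.7 and 107 CPM in control, 61.0 and 66.1 in Hira-depleted, 102 and 106 in Ubn1-depleted and 87.5 and 89.96 in Ubn2-depleted ESCs. It was called lower after Hira depletion (log2 fold change -0.72, SE 0.08, adjusted p = 9.21e-07), and the fall after Ubn2 depletion was smaller (log2 fold change -0.22, SE 0.07, adjusted p = 0.0175). Pola1, the catalytic subunit, went from 124 and 119 CPM to 82.6 and 85.7 after Hira depletion (log2 fold change -0.54, SE 0.08, adjusted p = 1.27e-05), whereas the Ubn2-depleted libraries, at 124 and 106 CPM, overlapped control. The primase genes Prim1 and Prim2 were at -0.52 and -0.45 after Hira depletion and at -0.36 and -0.29 after Ubn2 depletion, and passed in both. After Ubn2 depletion the calls for Pola2 and Prim2 were lost without the first Ubn2-depleted library (adjusted p = 0.118 and 0.113), that for Pola2 also without the second control library (0.138) and that for Prim2 without the first (0.133).

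Polymerase δ, which extends the lagging strand, held the largest fall of the set. Pold1, its catalytic subunit, stood at 167 and 181 CPM in control, 89.5 and 88.7 in Hira-depleted, 152 and 187 in Ubn1-depleted and 143 and 145 in Ubn2-depleted ESCs. The 2 Hira-depleted libraries were almost equal and lay at about the midpoint between 0 and control (log2 fold change -0.98, SE 0.08, adjusted p = 9.87e-09). After Ubn2 depletion the fall was smaller (log2 fold change -0.28, SE 0.07, adjusted p = 0.00288). Pold2, the accessory subunit, stood at 138 and 149 CPM in control, 88.0 and 82.2 in Hira-depleted, 102 and 140.1 in Ubn1-depleted and 83.3 and 91.4 in Ubn2-depleted ESCs. Pold2 was called lower in both (log2 fold change -0.77, SE 0.08, adjusted p = 2.79e-07, and log2 fold change -0.72, SE 0.07, adjusted p = 1.11e-07), and the 2 Ubn1-depleted libraries spread from near control to far below it. Pold3 went from 77.6 and 83.7 CPM to 56.7 and 59.1 in Hira-depleted and 61.9 and 65.3 in Ubn2-depleted ESCs, and fell in both. Pold4, another subunit, was counted with the fork accessory genes. It stood at 7.99 and 7.80 CPM in control, 11.0 and 8.21 in Hira-depleted and 7.09 and 7.30 in Ubn2-depleted ESCs. Pold1 and Pold2 encode partners in a single enzyme, and their promoters above differ in holding an octamer.

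Polymerase ε, which copies the leading strand, fell in both of its listed genes, Pole and Pole2, after Hira depletion. Its other subunits, Pole3 and Pole4, were counted with the fork accessory genes. Pole3 stood at 37.4 and 35.3 CPM in control, 30.6 and 35.9 in Hira-depleted and 45.9 and 47.8 in Ubn2-depleted ESCs. For Pole4 these values were 34.4 and 37.8, 30.5 and 31.4, and 40.7 and 39.2 CPM. Pole2 stood at 41.0 and 38.9 CPM in control, 21.5 and 23.3 in Hira-depleted, 38.0 and 35.2 in Ubn1-depleted and 30.9 and 33.1 in Ubn2-depleted ESCs. Its libraries ordered without overlap from control down to Hira depletion (log2 fold change -0.85, SE 0.10, adjusted p = 2.93e-06 after Hira depletion, log2 fold change -0.32, SE 0.10, adjusted p = 0.0118 after Ubn2 depletion). The latter call was lost without the first Ubn2-depleted library (adjusted p = 0.102). Pole, the catalytic subunit, was at 187 and 186 CPM in control and 128 and 139.7 after Hira depletion (log2 fold change -0.49, SE 0.08, adjusted p = 3.63e-05), while Ubn2-depleted libraries were at 176 and 181 CPM and did not pass.

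**Figure D4:**
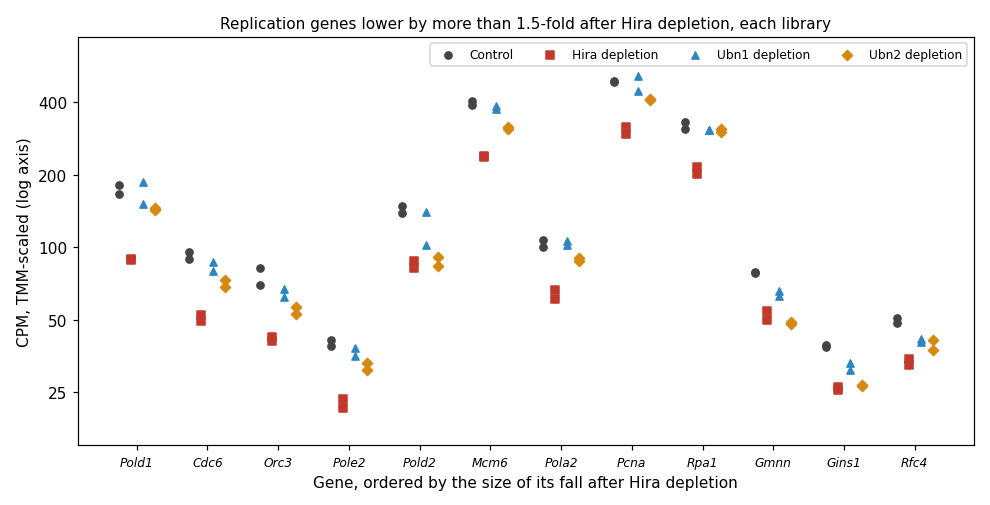
CPM on a log axis in every library for the 12 members called lower after Hira depletion, with genes on the x axis ordered by the size of the fall. The Hira-depleted libraries (squares) lie below both control libraries for each gene, and for Pold2, Gmnn and Gins1 the Ubn2-depleted libraries (diamonds) lie beside or below them.

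The clamp and its loader fell in 5 of 6 genes after Hira depletion and in 3 of 6 after Ubn2 depletion. Pcna stood at 491 and 484 CPM in control, 296 and 318 in Hira-depleted, 447 and 517 in Ubn1-depleted and 414 and 408 in Ubn2-depleted ESCs. It was called lower after Hira depletion (log2 fold change -0.69, SE 0.07, adjusted p = 5.80e-07), fell after Ubn2 depletion (log2 fold change -0.25, SE 0.07, adjusted p = 0.00693), and overlapped control after Ubn1 depletion. A near copy, Pcna-ps2, held 537 to 1025 counts per library, so the split of reads between the pair is uncertain. Rfc4 went from 50.6 and 48.6 CPM to 32.4 and 34.3 in Hira-depleted and 37.4 and 40.9 in Ubn2-depleted ESCs (log2 fold change -0.59, SE 0.09, adjusted p = 5.32e-05, and log2 fold change -0.34, SE 0.09, adjusted p = 0.00506). The call after Ubn2 depletion was lost without the first Ubn2-depleted library (adjusted p = 0.0728). Rfc4 shares 12.7% of its exon bases with the far more abundant Eif4a2 on the other strand. Rfc1, the large subunit, was at -0.29 and -0.29 in the 2 depletions and passed in both, although not after Hira depletion with library totals alone (-0.16, adjusted p = 0.0749), while Rfc2 and Rfc3 passed after Hira depletion at -0.43 and -0.42. Rfc5 did not pass after Hira depletion (log2 fold change -0.19, SE 0.07, adjusted p = 0.0579).

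The genes that finish the lagging strand were split. Lig1, the ligase, stood at 310.3 and 333 CPM in control, 218 and 230.0 in Hira-depleted and 262 and 256 in Ubn2-depleted ESCs, and fell in both (log2 fold change -0.54, SE 0.07, adjusted p = 1.20e-05, and log2 fold change -0.31, SE 0.07, adjusted p = 0.00127). Dna2, a nuclease, fell in both as well, at -0.40 and -0.36 on the log2 scale. Fen1, the flap nuclease, stood at 131 and 112 CPM in control, 113 and 123 in Hira-depleted and 142 and 143 in Ubn2-depleted ESCs. It did not pass after Hira depletion (-0.06, SE 0.08) and rose after Ubn2 depletion (log2 fold change 0.23, SE 0.07, adjusted p = 0.0156), with both libraries above control. The rise in Fen1 was 0.12 on the log2 scale without the second control library (adjusted p = 0.284) and 0.22 without the second Ubn2-depleted library (adjusted p = 0.0541), and 78.8% of its exon bases lie opposite to Gm10143. The strand setting of the counting is not given, so reads of the pair cannot be told apart.

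Replication protein A was the group with the fewest falls. Rpa1, its large subunit, stood at 309.7 and 331 CPM in control and 201 and 216 after Hira depletion, and was called lower (log2 fold change -0.64, SE 0.08, adjusted p = 1.77e-06). The 2 smaller subunits did not pass, with Rpa2 at -0.08, SE 0.08 and Rpa3 at -0.09, SE 0.09. After Ubn2 depletion 0 of the 3 passed, and Rpa1 was at 309 and 300.2 CPM, both just below the lower control library (-0.07, SE 0.07).

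The depletions were then compared directly, which tests whether the members differed between them. Against Ubn2 depletion, 25 members were lower and 0 higher after Hira depletion, where 17.2% of the 18563 genes tested were lower. The members' median was -0.30, beside 0.01 over all genes and -0.07 over the 7118 abundant genes. Pold1 was the member called lower (log2 fold change -0.69, SE 0.07, adjusted p = 6.38e-06), where 5.61% of all genes were. Rpa1 (-0.54, SE 0.08), Pole2 (-0.51, SE 0.11) and Mcm2 (-0.50, SE 0.08) came next in size. At the other end, Gmnn (0.12, SE 0.08), Rpa3 (0.08, SE 0.09) and Cdc45 (0.03, SE 0.07) had the highest values. They were among the 17 that did not pass. Pold2 (-0.03, SE 0.08), Gins1 (-0.02, SE 0.10) and Orc1 (0.02, SE 0.08), near 0, were also among these. DESeq2 gave 23 lower and 0 higher, and at an unadjusted p under 0.05 edgeR gave 27 lower and 0 higher.

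Against Ubn1 depletion, 27 members were lower and 0 higher after Hira depletion, where 10.2% of the 18819 genes tested were lower. At an unadjusted p under 0.05, 35 were lower and 2 higher, and DESeq2 gave 28 lower and 0 higher. The 10 called lower, where 3.16% of all genes were, were Orc3, Cdc6, Mcm2, Mcm5, Mcm6, Pola2, Pold1, Pole, Pole2 and Pcna. Pold1 led (log2 fold change -0.92, SE 0.10, adjusted p = 3.75e-07), followed by Cdc6 (log2 fold change -0.71, SE 0.10, adjusted p = 1.09e-05) and Pola2 (log2 fold change -0.70, SE 0.10, adjusted p = 7.86e-06). The members' median was -0.43, beside 0.02 over all genes and -0.08 over the 7118 abundant genes. Orc5 and Orc2 were the members with the highest values, 0.23, SE 0.10 and 0.22, SE 0.10, and did not pass.

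Ubn2 and Ubn1 depletion differed in fewer members. After Ubn2 depletion 7 members were lower than after Ubn1 depletion (Orc1, Gmnn, Mcm6, Pold2, Pold3, Lig1 and Dna2), where 7.98% of the 18205 genes tested were, and 0 were higher. None was called by edgeR or DESeq2, and at an unadjusted p under 0.05 edgeR gave 18 lower and 2 higher. The largest of these were Pold2 (log2 fold change -0.47, SE 0.12, adjusted p = 0.0107) and Gmnn (log2 fold change -0.41, SE 0.09, adjusted p = 0.00608). This count ranged from 1 to 16 as single libraries were left out: 1 without either Ubn2-depleted library, and 16 without the first Ubn1-depleted library.

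**Figure D5:**
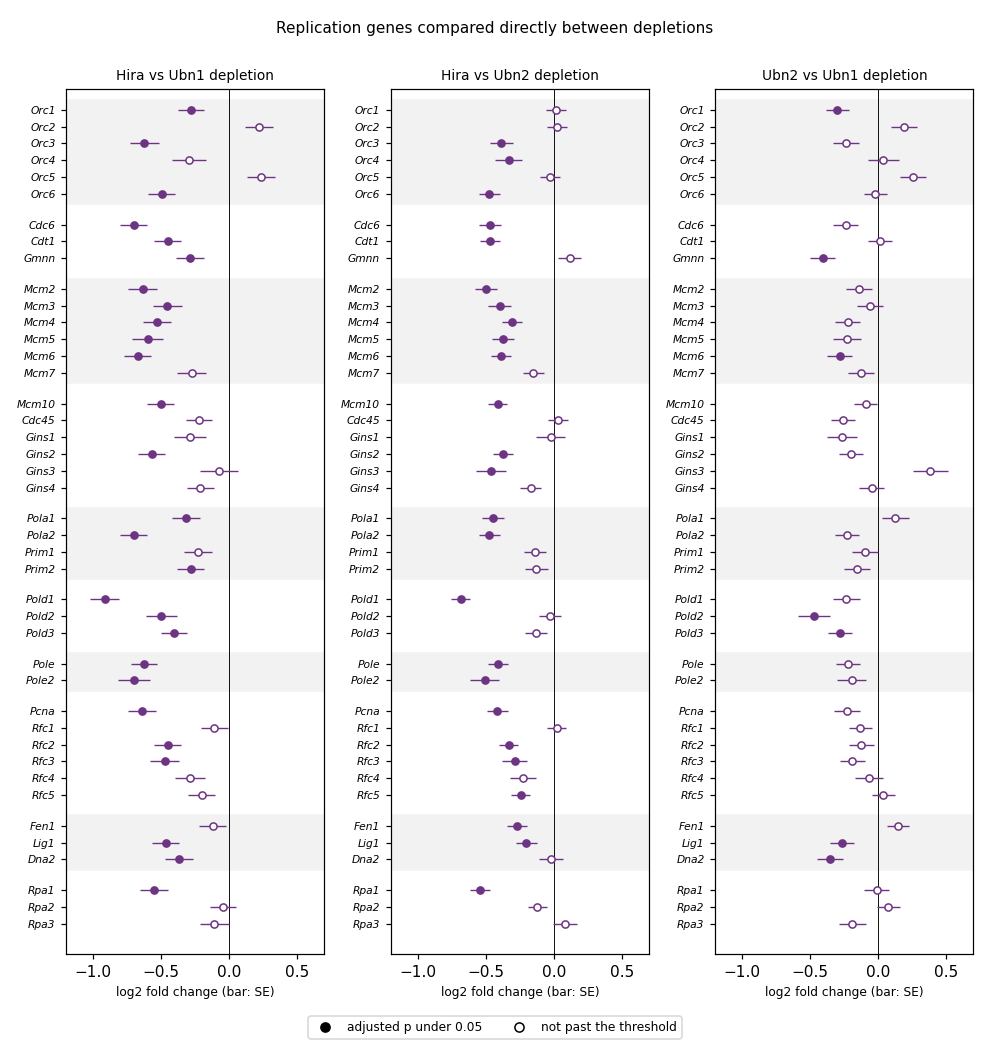
Log2 fold change of each member (x axis, bars are the SE) for Hira against Ubn1, Hira against Ubn2 and Ubn2 against Ubn1 depletion, genes on the y axis, points filled where the adjusted p was under 0.05. Filled points number 27, 25 and 7 of 42 in that order, and Gmnn, Pold2, Gins1 and Orc1 sit near 0 for Hira against Ubn2.

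Genes that work beside this machinery, taken from lists made by function with earlier results of these data known, were counted in the same fits. Of all genes tested, 17.3% fell and 17.6% rose in the comparison of Hira depletion with control, and for Ubn2 depletion these shares were 19.1% and 20.0%. Of 11 origin firing genes 9 fell and 1 rose after Hira depletion, led by Topbp1 (log2 fold change -0.57, SE 0.07, adjusted p = 6.55e-06), which recruits the activators. After Ubn2 depletion 3 fell and 1 rose, and Cdc7, the kinase that acts on the MCM ring, went from 62.3 and 57.1 CPM to 34.4 and 30.8 (log2 fold change -0.87, SE 0.09, adjusted p = 2.92e-07). In Hira-depleted libraries Cdc7 stood at 43.7 and 43.5 CPM, so that here the Ubn2-depleted libraries were the lower pair (log2 fold change 0.43, SE 0.10, adjusted p = 0.00302 for Hira against Ubn2 depletion). Of 15 fork accessory genes 8 fell and 1 rose after Hira depletion. Pclaf, a partner of Pcna, went from 75.1 and 71.8 CPM in control to 30.4 and 33.5 in Hira-depleted, 61.2 and 52.0 in Ubn1-depleted and 44.5 and 38.6 in Ubn2-depleted ESCs. Pclaf fell in all 3 comparisons, at -1.22, SE 0.09, -0.38, SE 0.10 and -0.82, SE 0.09. After Ubn2 depletion 3 of the 15 fell and 4 rose, shares near those of all genes tested.

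Of 10 genes for chromatin assembly at the fork 8 fell and 1 rose after Hira depletion, with Uhrf1 (-0.67, SE 0.08), which reads hemimethylated DNA, and Chaf1b (-0.63, SE 0.08), a subunit of the replication-coupled histone chaperone, among those that fell. After Ubn2 depletion 3 fell and 2 rose, and Asf1a, a histone chaperone that also hands histones to HIRA, was among those that rose (log2 fold change 0.67, SE 0.10, adjusted p = 1.24e-05). Asf1a stood above both control libraries (28.1 and 31.0 CPM) in every depletion. It was at 42.1 and 38.5 CPM in Hira-depleted, 39.8 and 31.2 in Ubn1-depleted and 46.7 and 47.5 in Ubn2-depleted ESCs. Of 12 genes for nucleotide supply 9 fell and 1 rose after Hira depletion, Tk1 (-0.69, SE 0.09), Dut (-0.63, SE 0.08) and Umps (-0.62, SE 0.08) among them, and 2 fell and 2 rose after Ubn2 depletion. Of 16 markers of G2 and mitosis 6 fell and 0 rose after Hira depletion, with a list median of -0.09, which is that of the abundant genes as a whole. Bub1 (-0.83, SE 0.09) and Cdk1 (-0.38, SE 0.07) were among the 6. After Ubn2 depletion 2 fell and 4 rose. After Ubn1 depletion 1 origin firing gene (Cdc7, -0.34, SE 0.10) and 1 fork accessory gene (Pclaf) fell, 0 of both rose, and 0 of the chromatin, nucleotide and mitotic genes passed. The part of a shift in cell cycle phase in the fall of the replication genes was not tested.

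Markers of other cells and states moved in some of the same libraries. The 10 ESC markers summed to 7100 and 7389 CPM in control, 6319 and 6470 in Hira-depleted, 6526 and 6429 in Ubn1-depleted, and 6122 and 6258 in Ubn2-depleted ESCs. Of the 10 markers, 4 fell and 1 rose after Hira depletion, 2 fell and 0 rose after Ubn1 depletion, and 4 fell and 2 rose after Ubn2 depletion. Among all genes tested, 17.3% fell and 17.6% rose in Hira-depleted ESCs. In Ubn1-depleted ESCs 3.62% fell and 4.14% rose, and in Ubn2-depleted ESCs 19.1% fell and 20.0% rose. The 2 of 10 ESC markers that rose in Ubn2-depleted ESCs were thus near the share of all genes. The same shares apply to the marker lists that follow. Markers of the 2-cell-like state rose in 6 of 7 tested after Hira depletion, 4 of 6 after Ubn1 depletion and 7 of 7 after Ubn2 depletion, from sums of 4.09 to 8.82 CPM in control to 21.0 to 29.3, 16.9 to 19.1 and 29.3 to 42.1 CPM. Of 11 heart muscle markers, 10 rose and 1 fell after Ubn2 depletion. They summed to 385 and 246 CPM there, beside 21.2 to 23.6 CPM in control, 18.4 to 20.7 after Hira depletion, where 1 of 6 tested fell, and 15.7 to 21.7 after Ubn1 depletion, where 0 of 5 passed. Actc1, a sarcomeric actin, was at 0.0975 and 0.189 CPM in control and 85.4 and 49.7 CPM after Ubn2 depletion, and Csrp3 had 0 counts in control. Of 8 fibroblast markers, 6 were higher in both Ubn2-depleted libraries than in control and 2 were lower, and of the 6 tested 3 rose (Col1a2, Col3a1 and Postn) and 2 fell (Fbln1 and Thy1). Col3a1, Dcn, Lum and Postn had 0 counts in control, and Col3a1 was at 6.76 and 4.13 CPM after Ubn2 depletion. The list's sum went the other way, from 68.0 and 70.9 CPM in control to 55.9 and 48.7 CPM, with Fbln1 at 47.3 and 50.7 CPM in control and 27.5 and 24.7 after Ubn2 depletion. After Hira depletion the sum was 64.3 and 57.0 CPM, and of 3 tested 2 rose and 1 fell. After Ubn1 depletion it was 54.8 and 70.1 CPM, and 0 of 3 passed. Erythroid markers summed to 5.26 to 8.74 CPM after Ubn2 depletion and to 1.14 CPM or less in the other libraries, and 2 of 3 tested rose, with Hbb-bh1 and Hbb-y at 0 in the Ubn2-depleted libraries. The members summed to 7335 and 7366 CPM in the same 2 Ubn2-depleted libraries, and the part of these cells or states in their values was not tested.

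The tests rest on 2 libraries per condition. When libraries were scaled by their totals alone, which moved the median of all genes to 0.14 on the log2 scale after Hira depletion, 31 members fell, 7 were called lower and the members' median was -0.38.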

How the data were processed

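Raw counts per gene were deposited in 3 tables of the whole series, 1 per depletion with the same control columns, and no value of the controls differed between tables. Per the labels and the methods of the study, the authors trimmed paired reads with Trim Galore, mapped these with STAR (build GRCm38) and made counts per gene with featureCounts. Versions and the strand setting are not given in the sources used here. The members and lists were chosen with earlier results of these data known.

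Counts were analysed as deposited with edgeR 4.0.16 in R 4.3.3: filterByExpr, TMM factors (0.970 to 1.06), glmQLFit and glmQLFTest, on the libraries of the 2 groups compared, with Benjamini-Hochberg adjustment over all genes tested. The SE is the log2 fold change divided by the root of F. CPM values use TMM factors over all 8 libraries. Levels per length used exons of GENCODE M21 joined per gene, for the 55303 symbols with 1 model. Scripts were tested on simulated data. Alternatives were DESeq2 1.42.0, other scalings and filters, a fit of all libraries, a replicate block, the call rule, longest transcripts and each library left out. Named were all members, the 3 targeted genes and, from each list and comparison, up to 3 genes with the smallest adjusted p. Beyond these, Actc1, ESC markers, fibroblast markers and markers at 0 were named as markers. Pold4, Pole3 and Pole4 were named as subunits of the listed polymerases, and Gins3's promoter was added. Same-numbered libraries deviated together with r from -0.0521 to 0.0672, so the numbers were not taken as pairs. Depth of 19710040 to 32706053 counts per library gave each member at least 491 counts in every library.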

Additional observations from a re-analysis of the deposited data

Results flagged for a closer look

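In 4 members the libraries of different depletions lay on opposite sides of both control libraries, and the direct test between these depletions passed. For Rfc5, both Hira-depleted libraries (155 and 165 CPM) were below control (182 and 178) and both Ubn2-depleted libraries (190.4 and 191) above it, with a log2 difference of -0.24 for Hira against Ubn2 depletion (adjusted p = 0.0163). This difference lost its call when libraries were scaled by totals (adjusted p = 0.0503) and when the first Hira-depleted or either Ubn2-depleted library was left out (adjusted p from 0.0673 to 0.0825). Mcm2 stood at 403 and 445 CPM after Hira depletion and 634 and 692 after Ubn1 depletion, around control at 561 and 616, with a difference of -0.64 (adjusted p = 7.44e-05). Pole was at 128 and 139.7 CPM and 206 and 211 in these depletions, around 187 and 186 in control, with a difference of -0.63 (adjusted p = 3.32e-05). Rfc3 was at 39.1 and 44.5 CPM and 57.1 and 59.5, around 54.5 and 55.6, with a difference of -0.48 (adjusted p = 0.00155), which was -0.38 without the first Hira-depleted library (adjusted p = 0.0749). Mcm2, Pole and Rfc3 did not pass for Ubn1 depletion against control. Rfc5 passed neither after Hira depletion (log2 fold change -0.19, SE 0.07, adjusted p = 0.0579) nor after Ubn2 depletion (log2 fold change 0.08, SE 0.07, adjusted p = 0.357).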

How the results depend on the processing

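The 35 falls after Hira depletion kept their direction under each alternative run, and 31 of these genes kept their adjusted p under 0.05 throughout, the exceptions being Cdc45, Mcm7, Orc4 and Rfc1. The median log2 fold change of all 42 members after Hira depletion ranged from -0.55 to -0.38. After Ubn2 depletion 14 of 22 were kept throughout, the exceptions being Cdc45, Fen1, Gins3, Mcm4, Pola2, Pole2, Prim2 and Rfc4, between Hira and Ubn2 depletion 21 of 25, between Hira and Ubn1 depletion 18 of 27, and between Ubn2 and Ubn1 depletion 0 of 7. The count called lower after Hira depletion was 7 with library totals alone, and 11 to 16 with a library left out. With an adjusted p alone the called members became 35 after Hira depletion, 20 lower and 2 higher after Ubn2 depletion, 25 for Hira against Ubn2, 27 for Hira against Ubn1 and 7 for Ubn2 against Ubn1 depletion. After Ubn1 depletion 1 member was lower with DESeq2 size factors, upper quartile factors, 10 counts in every library or all 8 libraries in one fit, 5 with the replicate block, and 0 to 5 lower and 0 to 1 higher with a library left out. Higher members after Ubn2 depletion ranged from 0 (without the second control library) to 3 with a library left out, and called lower members for Hira against Ubn2 from 1 to 2. For Hira against Ubn1 depletion 2 members were higher and 5 called lower with library totals alone, and 0 to 2 were higher with a library left out (2 without the first Ubn1-depleted library). For Ubn2 against Ubn1 depletion the block gave 13 lower and 2 higher, upper quartile factors, no filter, 10 counts in every library and all 8 libraries 1 higher each, and leaving out a library 1 to 16 lower, 0 to 4 higher and 0 to 1 called in each direction. Members called lower for Hira against Ubn1 ranged from 7 to 13 there. The replicate block moved no other count by over 1.5 times. The causes of these shifts were not tested. With 2 libraries per group, leaving 1 out assumes that the lone library varies like the others.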

Other observations

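The E2F and RB genes, which act upstream of many replication genes, were counted in the same fits. Of 13, 3 fell and 3 rose after Hira depletion, beside 17.3% and 17.6% of all genes tested, and 2 fell and 6 rose after Ubn2 depletion, beside 19.1% and 20.0%. Rbl1, which encodes the pocket protein p107, was at 27.5 and 27.2 CPM in control, 12.9 and 12.3 in Hira-depleted, 24.3 and 23.6 in Ubn1-depleted and 19.3 and 21.4 in Ubn2-depleted ESCs. It fell after Hira depletion (log2 fold change -1.13, SE 0.12, adjusted p = 5.75e-07) and after Ubn2 depletion (log2 fold change -0.43, SE 0.11, adjusted p = 0.00445). Rb1, the retinoblastoma gene, was at 15.4 and 16.1 CPM in control, 32.1 and 29.1 in Hira-depleted, 21.4 and 19.4 in Ubn1-depleted and 27.4 and 27.6 in Ubn2-depleted ESCs. Rb1 rose after Hira depletion (log2 fold change 0.94, SE 0.12, adjusted p = 3.32e-06) and after Ubn2 depletion (log2 fold change 0.80, SE 0.11, adjusted p = 1.16e-05), with no overlap with control. E2f1, an activator, fell after Hira depletion (log2 fold change -0.48, SE 0.09, adjusted p = 3.38e-04), and E2f3 rose after Ubn2 depletion (log2 fold change 0.64, SE 0.10, adjusted p = 1.91e-05).

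Of 7 genes for topoisomerases and RNase H, 3 fell and 0 rose after Hira depletion, beside 17.3% and 17.6% of all genes tested. After Ubn2 depletion 2 fell and 1 rose, which is near the shares of all genes, 19.1% and 20.0%. Rnaseh2a, which removes RNA from DNA, fell in both (-0.52, SE 0.08, and -0.34, SE 0.07), and Top2b rose after Ubn2 depletion (0.29, SE 0.09).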
